A study of Mus musculus with 30 samples.

Results

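Listed transcription factor sites lay unusually close together in 3 segments of mouse chromosome 10 (build mm9). A site belonged to a block if the midpoint of its 400 bp interval lay in chr10:106700001-107900000 (block 1, 1200 kb), chr10:116200001-116800000 (block 2, 600 kb) or chr10:117200001-118100000 (block 3, 900 kb). The blocks held 943 of the 34726 distinct intervals in 9 deposited lists: 449 in block 1, 192 in block 2 and 302 in block 3. Chromosome 10 held 2425 sites in all, so 1482 lay in the rest of it, and 32299 lay on the other autosomes and X. The segments, called blocks here, were chosen by the density of listed intervals along the chromosome, so density and spacing are given as a description and were not tested.

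The lists came from chromatin immunoprecipitation with sequencing (ChIP-seq) of 9 transcription factors in 3T3-L1 cells, an established line of mouse pre-adipocytes that can be driven to become fat cells. All 9 libraries, 1 per factor, were of 1 group: cells harvested 4 h after post-confluent cultures received 1 μM dexamethasone, 0.5 mM IBMX, 1 μg/ml insulin and 10% FCS. Of 30 labelled samples these 9 were used and 21 were not analysed here, and no untreated list was used. The deposited lists gave positions only, so depth and peak height are unknown, and a site "listed for" a factor is one that appears in that factor's list.

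ATF2, ATF7, cJun, FOSL2 and JunB are bZIP proteins, which grip DNA as dimers through a basic leucine zipper. cJun, JunB and FOSL2 are subunits of AP-1, the dimeric factor that responds to growth and stress signals; ATF2 and ATF7 are close relatives that pair with each other or with Jun proteins and favour cyclic AMP response elements. KLF4 and KLF5 are zinc-finger proteins that read GC-rich motifs, and both act early in fat cell formation. VDR, the vitamin D receptor, binds DNA together with RXR, a nuclear receptor that is also the partner of many other receptors. Sites where many of these factors meet are often called hotspots; here the word is used for a site listed for 5 or more of the 9 factors.

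The blocks stood out in every list, but most in those of ATF2, ATF7 and FOSL2. Block 1 held 374 sites per Mb, block 2 held 320 and block 3 held 336, against 11.9 per Mb in the rest of chromosome 10 and 13.3 per Mb on the other chromosomes. In 100 kb bins, 24 of the 27 block bins held 20 or more sites, a density reached by 0.11% of the 26345 bins of the genome and by 5 bins outside the blocks. The fullest block bin held 59 sites, the median block bin 35 and the emptiest 10, while the fullest bin elsewhere (chr19:5800001-5900000) held 27. The block bins under 20 sites were the first of block 1 with 18 sites, the first of block 2 with 10, and the bin from 200 to 300 kb of block 2 with 19.

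FOSL2 showed the steepest rise. Its sites were 90.1-fold as dense in the 3 blocks together as in the rest of chromosome 10. The factor was 74.4-fold for ATF7 and 51.9-fold for ATF2. The 6 other lists lay between 13.2-fold (JunB) and 32.2-fold (KLF4), with cJun at 22.5-fold, VDR at 19.9-fold, RXR at 15.4-fold and KLF5 at 14.1-fold. Sites listed for at least 1 of those 6 factors, counted together, were 13.4-fold as dense, whereas sites listed for ATF2, ATF7 or FOSL2 and no other factor were 97.4-fold as dense. The grouping into these 3 lists and 6 others was made after the values had been seen, and no test is attached to it.

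The blocks therefore made up very different shares of the lists. They held 447 of the 6284 FOSL2 sites (7.11%, exact 95% interval 6.49 to 7.78), 427 of the 7375 ATF7 sites (5.79%) and 473 of the 11547 ATF2 sites (4.10%). On chromosome 10 alone, 66.2% of the FOSL2 sites, 61.8% of the ATF7 sites and 53.0% of the ATF2 sites lay in the blocks. KLF4 followed with 149 of 5876 sites (2.54%) and cJun with 139 of 6176 (2.25%). VDR had 219 of 11796 (1.86%), RXR 183 of 12082 (1.51%), JunB 138 of 10082 (1.37%) and KLF5, the longest list, 220 of 17120 (1.29%). Here and below, intervals are Clopper-Pearson intervals that cover counting error only; neighbouring sites are not independent, and no interval covers variation between cultures or antibodies.

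Bins that were dense in a single list ordered the factors somewhat differently. A 100 kb bin with 10 or more ATF7 sites occurred 22 times in the genome (0.0835% of bins), each time in a block. Of the 23 such bins for FOSL2 (0.0873%), 21 lay in the blocks, and of the 36 for ATF2 (0.137%), 24 did. All 4 such bins of cJun (0.0152%) and 7 of the 9 of KLF4 (0.0342%) were also block bins. JunB had 5 of 11 (0.0418%), VDR 9 of 18 (0.0683%), RXR 6 of 25 (0.0949%) and KLF5 10 of 66 (0.251%). By this cut KLF5 sites were dense in many places, and the blocks were a minority of them. The cut of 10 sites was not scaled to list length, which ran from 5876 sites (KLF4) to 17120 (KLF5). A longer list can reach it more easily, so the order of the factors may depend partly on length, which was not tested.

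**Figure D1:**
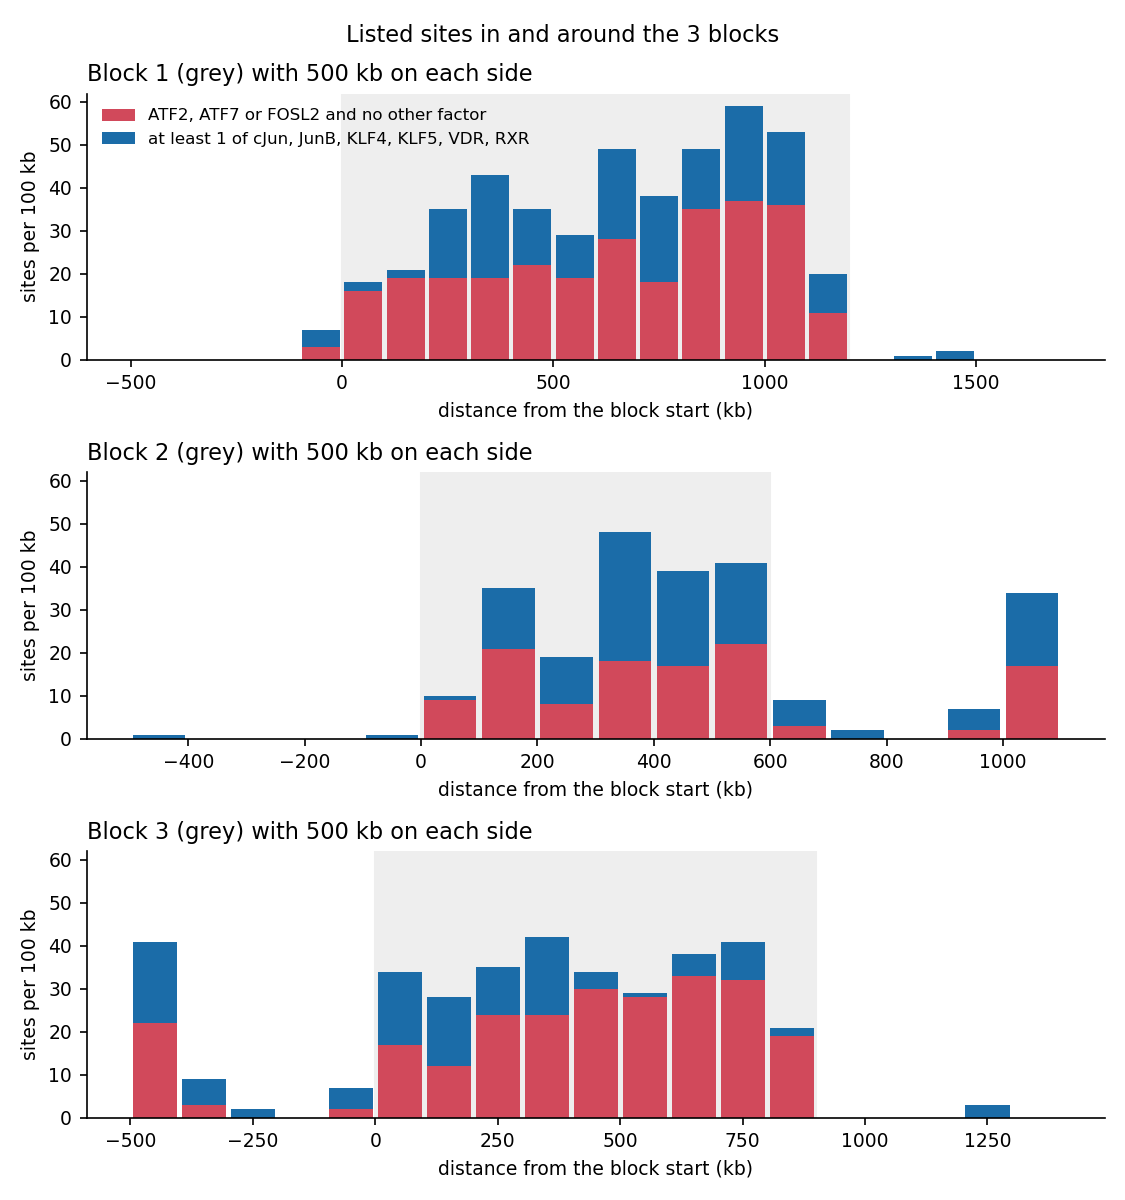
Sites per 100 kb along each block (grey) and 500 kb on either side, by distance from the block start in kb; red bars are sites listed for ATF2, ATF7 or FOSL2 and no other factor, blue bars are sites listed for at least 1 of the 6 other factors. Counts inside the blocks run from 10 to 59 per bin; the bars to the right of block 2 and to the left of block 3 include the neighbouring block.

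The make-up of the sites differed from that of the rest of the chromosome in opposite directions for different factors. In block 1, 43.4% of sites were listed for ATF2, in block 2 62.0% and in block 3 52.6%, against 28.3% (26.0 to 30.6) in the rest of chromosome 10. ATF7 was listed at 38.3%, 57.8% and 47.7% of sites, against 17.8%. FOSL2 was listed at 41.2%, 54.2% and 52.3%, against 15.4%. In none of the 3 blocks did the exact interval of these shares reach that of the rest of the chromosome.

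KLF5 and JunB went the other way. KLF5, at 48.4% the most frequent factor in the rest of chromosome 10, was listed at 21.8% of block 1 sites, 33.9% of block 2 sites and 18.9% of block 3 sites. JunB fell short in the same way, with 13.6%, 20.8% and 12.3% against 32.4%. RXR was listed at 20.0%, 27.1% and 13.6%, against 36.9%. The other AP-1 and receptor lists differed by block. VDR had 33.9% in block 2 against 34.2% in the rest, but 23.2% and 16.6% in blocks 1 and 3. The cJun list had 18.0% in block 1 against 19.2%, but 9.60% in block 3. KLF4 was near the 14.4% of the rest in blocks 1 (14.3%) and 3 (11.9%), and stood at 25.5% (19.5 to 32.3) in block 2.

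Sites listed for ATF2, ATF7 or FOSL2, alone or together, and for no other factor formed the largest class of block sites. They numbered 593 of 943 (62.9%), against a share of 22.4% among all 34726 sites and 18.9% in the rest of chromosome 10. They made up 62.1% of block 1, 49.5% of block 2 and 72.5% of block 3. The remaining 350 block sites can be compared with the rest of the chromosome on the 6 other factors alone. Among them KLF5 was listed at 57.6%, 67.0% and 68.7% in blocks 1, 2 and 3, against 59.7% elsewhere on chromosome 10. JunB was listed at 35.9%, 41.2% and 44.6%, against 39.9%. For both factors the exact interval in each block included the value of the rest of the chromosome. KLF4, in contrast, reached 37.6%, 50.5% and 43.4%, against 17.7%, and VDR reached 61.2%, 67.0% and 60.2%, against 42.2%. The cJun list had 47.6% in block 1, against 23.6%, and 29.9% and 34.9% in blocks 2 and 3. RXR had 52.9%, 53.6% and 49.4%, against 45.5%.

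**Figure D2:**
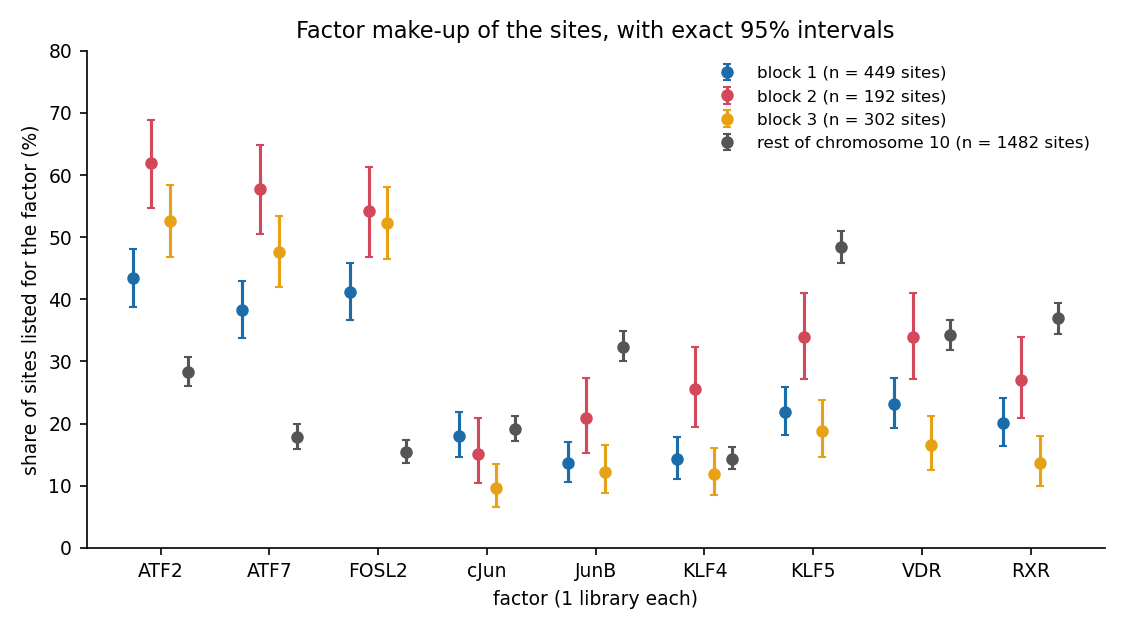
Share of sites listed for each factor, in percent, in block 1, block 2, block 3 and the rest of chromosome 10; points are shares and bars exact 95% intervals for counting error. ATF2, ATF7 and FOSL2 sit above the rest of the chromosome in every block, while KLF5, JunB and RXR sit below it.

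The exact combinations of factors showed how narrow this excess was. The most frequent in block 1 were ATF2 alone (64 sites, 14.3%), ATF7 alone (57 sites, 12.7%) and FOSL2 alone (52 sites, 11.6%). In block 3 the same 3 single listings led, with FOSL2 alone first (52 sites, 17.2%), then ATF2 (42 sites, 13.9%) and ATF7 (31 sites, 10.3%). Block 2 differed: its leading combination was ATF2, ATF7 and FOSL2 together (24 sites, 12.5%), followed by ATF2 with ATF7 (16 sites, 8.33%), and by ATF2 alone and ATF7 alone with 14 sites each.

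The trio without any other factor was rare outside the blocks. It was found at 84 block sites (8.91%, 7.17 to 10.9), at 11 sites in the rest of chromosome 10 (0.742%) and at 176 sites on the other chromosomes (0.545%). FOSL2 with ATF7 and nothing else was listed at 49 block sites (5.20%) and at 2 sites in the rest of the chromosome (0.135%). On the other chromosomes its share was 0.204%. FOSL2 with ATF2 and nothing else was listed at 62 block sites (6.57%), at 10 in the rest (0.675%) and at 0.474% of sites on the other chromosomes. The combinations of ATF2 and ATF7 without FOSL2 were less extreme, at 6.57% of block sites and 3.17% of the rest.

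Single listings of the other factors were scarce in the blocks. KLF5 alone accounted for 22 block sites (2.33%) but for 178 of the 1482 sites in the rest of the chromosome. JunB alone accounted for 3 block sites, 1 in each block, against 5.33% of the rest. RXR alone made up 8 block sites (0.848%) against 5.40%. By family, sites with bZIP factors only made up 66.1% of the blocks and 29.6% of the rest, sites with only KLF factors 3.18% and 13.8%, and sites with only VDR or RXR 3.50% and 13.0%. Sites that joined all 3 families made up 15.7% of the blocks and 19.1% of the rest; in block 2 they made up 26.0%.

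The partners found at each factor's own sites shifted accordingly. FOSL2 is an AP-1 subunit that needs a Jun-type partner to bind as AP-1, and in the rest of chromosome 10 54.4% of its sites were also JunB sites. In the blocks this was 19.7% (16.1 to 23.7). The share of FOSL2 sites with cJun was 14.1% in the blocks and 34.6% in the rest, while the share with ATF7 was 52.6% and 38.2%. The share with ATF2 was 51.9% in block 1, 74.0% (64.5 to 82.1) in block 2 and 48.1% in block 3, against 52.2% in the rest. At least 1 of the 6 other factors was listed at 30.9% of FOSL2 sites in the blocks and at 71.1% in the rest. The only Jun lists used were those of cJun and JunB, and depth is unknown. A FOSL2 site without either listing is therefore not shown to lack a Jun-type partner.

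Seen from the rarer factors, block sites were crowded. JunB sites in the blocks carried 6.28 factors on average, against 3.92 in the rest of chromosome 10, and FOSL2 was listed at 63.8% of them against 25.8%. KLF5 sites carried 5.24 against 3.40 and cJun sites 6.05 against 4.69. Of the cJun sites in the blocks, 72.7% had 4 or more other factors, against 52.5% in the rest. FOSL2 sites carried fewer in blocks 1 (2.86) and 3 (2.94) than the 4.24 of the rest, and 4.19 in block 2. ATF2 sites carried 2.85, 3.95 and 3.06 in blocks 1, 2 and 3, against 3.18. KLF4 sites were also cJun sites in 70.3% of cases in block 1, 40.8% in block 2 and 58.3% in block 3, against 38.0% in the rest. The overlap of VDR sites with their partner RXR was 67.1% in the blocks and 65.9% in the rest.

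The mean number of factors per site was 2.34 in block 1, 3.30 in block 2 and 2.35 in block 3, against 2.47 in the rest of chromosome 10. An exact two-sided sign-flip permutation test over the 9 lists, with each list's share of sites as its value and adjustment by the Benjamini-Hochberg method over 3 blocks, gave adjusted p = 0.887 for block 1, 0.762 for block 2 and 0.887 for block 3. The lists pulled apart: 3 of 9 were higher in blocks 1 and 3 and 4 of 9 in block 2, led by ATF2, ATF7 and FOSL2. The test asks whether the lists shift together, so these p-values do not show that the means are equal. The smallest p this test allows is 0.00391, before adjustment. The 9 lists share 1 set of intervals, so they are not fully independent of each other.

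With those 3 lists set aside, a choice made after seeing the data, all 3 blocks lay above the rest, blocks 1 and 3 having lain below it before. Sites listed for at least 1 of the 6 other factors held on average 2.93 of these factors in block 1, 3.09 in block 2 and 3.01 in block 3, against 2.29 in the rest of chromosome 10. These means are a description, since the lists set aside were chosen on the values themselves. All 6 of the factors were listed together at 17.6%, 16.5% and 19.3% of these sites, against 5.07% in the rest.

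Between the blocks as bounded here, block 2 held more factors per site on average than blocks 1 and 3. It exceeded block 1 by 0.964 factors per site, with 8 of 9 lists higher and cJun the exception (exact permutation test over lists, adjusted p = 0.0117 over 3 pairs of blocks). It exceeded block 3 by 0.948, with 9 of 9 lists higher (exact permutation test, adjusted p = 0.0117). That excess depended on where block 3 was bounded. The first 450 kb of block 3 held 3.12 factors per site and the second 450 kb held 1.55, in a division made after seeing the data. Blocks 1 and 3 differed by 0.0158 (exact permutation test, adjusted p = 0.934). Each hotspot adds to 5 or more lists at once, so the 9 lists are not separate results and these p-values may be too small. In block 2, 1 stretch of 8.4 kb with 7 hotspots held 73 of the 634 list entries. Among sites with 2 or more factors the excess of block 2 was 0.544 over block 1 and 0.529 over block 3 (exact permutation test, adjusted p = 0.152 and 0.129). Without the ATF2, ATF7 and FOSL2 lists, a choice made after seeing the data, it was 0.163 and 0.0807 (exact permutation test, adjusted p = 0.719 for both). These last p-values decide nothing, because the lists left out were chosen on the values and fewer lists raise the smallest possible p. Neither call held without the single-factor sites, and the excess was smaller without those 3 lists.

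Pooled over the blocks, the distribution behind the means had more sites at its upper end than the rest of the chromosome and fewer in the middle. A single factor was listed at 400 block sites (42.4%), against 43.3% of all sites and 43.5% of the rest of chromosome 10; the number was 211 in block 1 (47.0%), 48 in block 2 and 141 in block 3 (46.7%). Sites with 4 to 6 factors made up 10.4% of the blocks and 18.6% of the rest. Sites with 7 to 9 factors made up 8.70% (6.98 to 10.7) of the blocks and 4.59% of the rest. This did not hold block by block. The share with 7 to 9 factors was 6.46% (4.37 to 9.14) in block 1, 15.6% in block 2 and 7.62% in block 3. The share with 4 to 6 was 10.0%, 16.7% (11.7 to 22.7) and 6.95%. The interval of block 1 for 7 to 9 factors and that of block 2 for 4 to 6 included the value of the rest.

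Hotspots as a whole were about as frequent as elsewhere. They numbered 136 of 943 (14.4%), against 16.2% of all sites and 14.9% of the rest of the chromosome. Blocks 1 and 3 had 12.2% and 12.3%, and block 2 had 22.9% (17.2 to 29.5). Sites listed for all 9 factors numbered 32 (3.39%, 2.33 to 4.76): 11 in block 1, 8 in block 2 and 13 in block 3. The rest of chromosome 10 had 13 (0.877%), and the share among all sites was 1.45%.

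**Figure D3:**
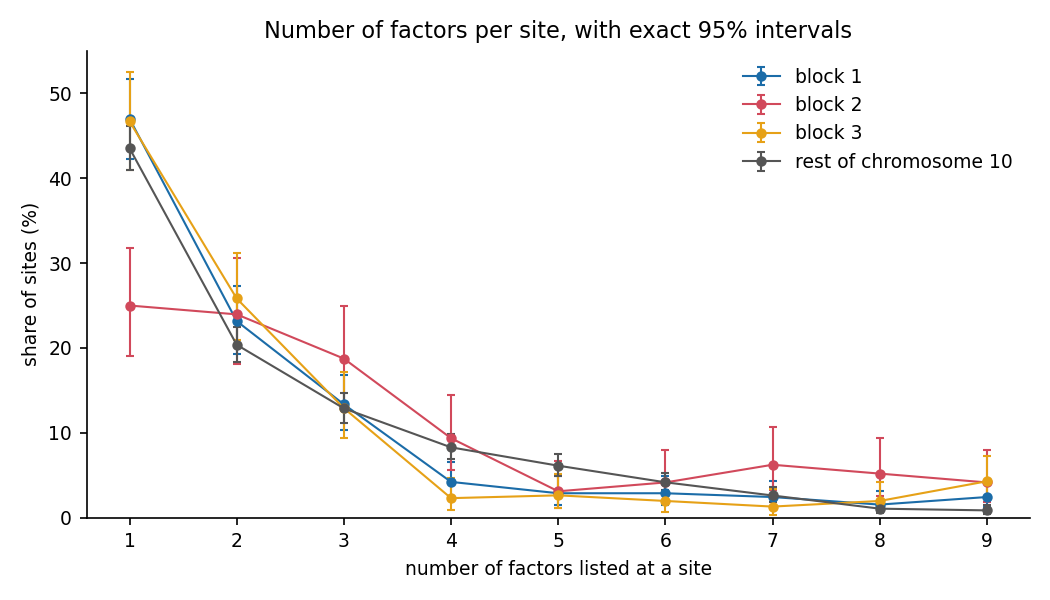
Share of sites, in percent, by the number of factors listed at them, for the 3 blocks and the rest of chromosome 10, with exact 95% intervals for counting error. Block 2 starts at 48 of 192 sites for a single factor, where blocks 1 and 3 start at 47.0% and 46.7%; sites with all 9 factors make up 0.877% of the rest and more in each block.

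Sites within the blocks lay close together. The median distance between neighbouring midpoints was 1.56 kb in block 1, 1.40 kb in block 2 and 1.51 kb in block 3, against 22.5 kb in the rest of chromosome 10 and 16.9 kb on the other chromosomes. Of the distances between neighbours, 59.8%, 60.2% and 57.8% were at most 2 kb, against 13.9% in the rest. Neighbouring 400 bp intervals overlapped in 9.38%, 9.42% and 8.97% of cases, against 2.84%. The widest gap inside a block was 49.6 kb in block 1, 59.4 kb in block 2 and 45.8 kb in block 3.

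Chains of sites with gaps of at most 2 kb took in most members: 372 of 449 sites in block 1, 160 of 192 in block 2 and 245 of 302 in block 3. The longest chain of block 2, at chr10:116581174-116589618, had 12 sites, 7 of them hotspots. ATF2 and FOSL2 were each listed at 10 of these sites, ATF7, KLF5 and VDR at 9, RXR at 8, and JunB and KLF4 at 7. The longest chains of the other blocks held fewer hotspots. In block 3, at chr10:117513933-117520407, it had 11 sites, of which 8 were listed for ATF2, ATF7 or FOSL2 only and 1 was a hotspot. In block 1, at chr10:107616478-107626371, it had 9 sites, of which 7 were of that kind and 1 was a hotspot. Block 1 had 3 chains of 9 sites, and this one held the most list entries. The others had 6 and 5 sites of that kind and 1 and 0 hotspots. Over the whole of blocks 1 and 3, 62.1% and 72.5% of sites were of that kind, and 12.2% and 12.3% were hotspots. The counts in these chains are therefore not read as a trait of the chains.

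The fullest 25 kb bins held mostly sites listed for ATF2, ATF7 or FOSL2 and no other factor. These bins were chr10:107575001-107600000 in block 1 with 17 sites, chr10:116525001-116550000 in block 2 with 15 and chr10:117500001-117525000 in block 3 with 18. The 3 lists alone accounted for 12, 10 and 14 of these sites, and each bin held 1 hotspot. Over the whole blocks such sites made up 62.1%, 49.5% and 72.5%, and hotspots 12.2%, 22.9% and 12.3%. The counts are therefore not read as a trait of the bins. On a larger scale block 2 differed: its fullest 100 kb bin held 48 sites, of which 15 were hotspots.

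Sites with all 9 factors were found in each block. The first 3 in block 1, by position, were chr10:107004229-107004628, chr10:107065082-107065481 and chr10:107337045-107337444. In block 2 they were chr10:116365844-116366243, chr10:116392262-116392661 and chr10:116432898-116433297. In block 3 they were chr10:117229085-117229484, which is also the first site of that block, chr10:117309736-117310135 and chr10:117353416-117353815. Hotspots occurred in 26 of the 48 bins of 25 kb in block 1, in 13 of 24 in block 2 and in 18 of 36 in block 3. The 5 bins with most hotspots held 45.5%, 63.6% and 43.2% of them, while the 5 bins with most ATF2, ATF7 or FOSL2-only sites held 20.8%, 45.3% and 26.9% of those.

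**Figure D4:**
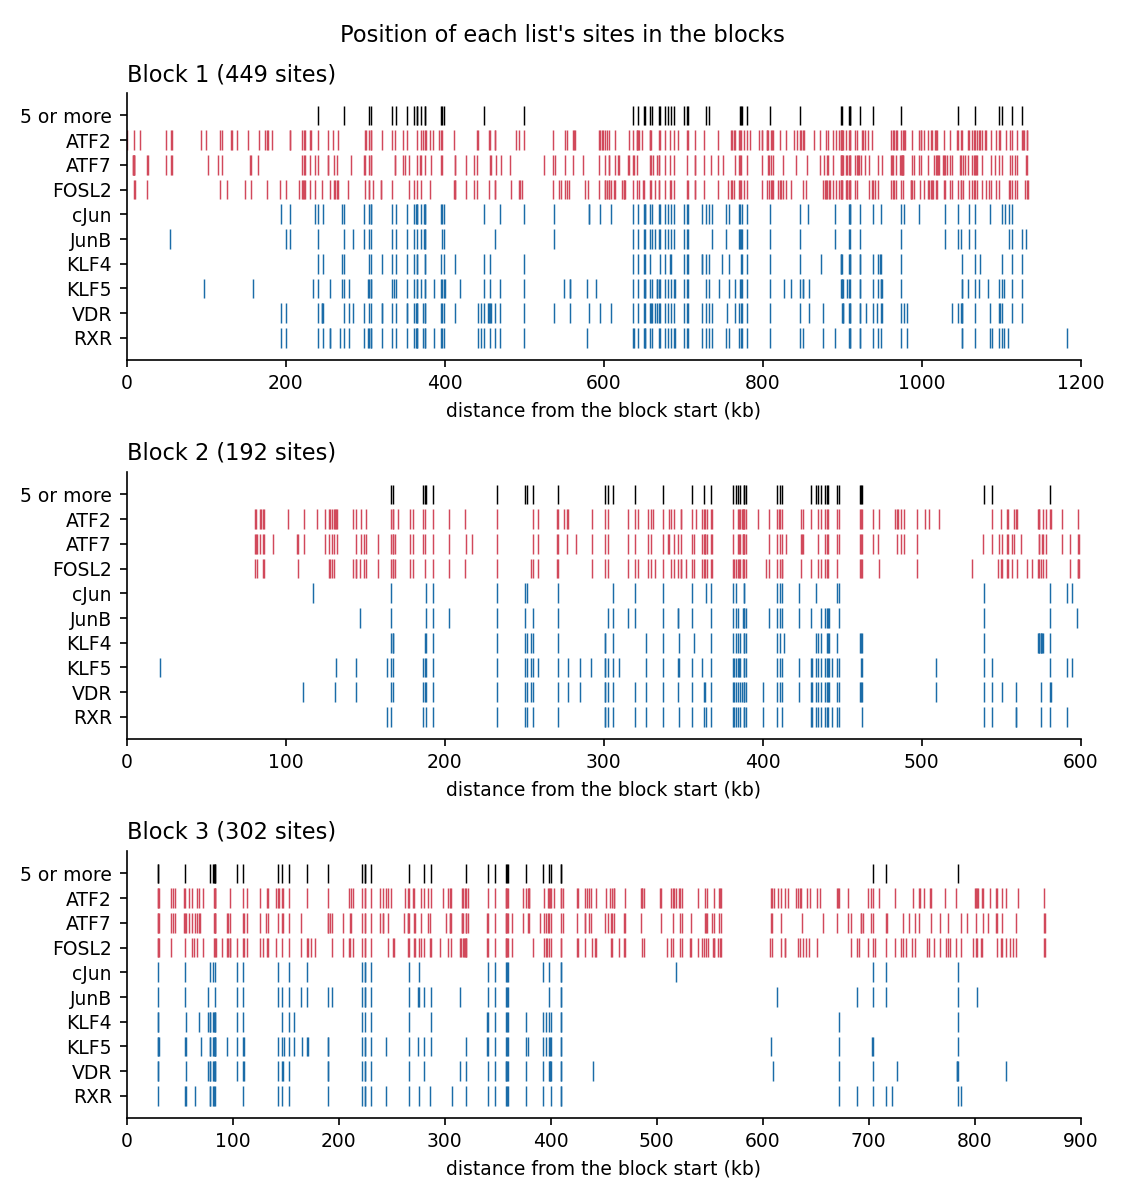
Position of every listed site in the 3 blocks, by distance from the block start in kb, with 1 row per list (red for ATF2, ATF7 and FOSL2, blue for the 6 other lists) and hotspots in black on top. The red rows run through the blocks, while the blue rows start late in block 1 and thin out near the middle of block 3.

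The lists also differed in where the blocks began and ended. For each list, sites were joined into a run until a gap of over 100 kb. In block 1 the runs of FOSL2 and ATF7 began 60.7 and 58.6 kb before the chosen start and that of ATF2 began 0.987 kb after it. KLF5 began 96.9 kb after the start, and cJun, VDR and RXR began together at 194.8 kb, with the site chr10:106894589-106894988. JunB and KLF4 were broken by gaps, and their longest runs began at 637.2 kb, at a site listed for all 9 factors. Before the first cJun, KLF4, VDR or RXR site, block 1 held 38 sites, of which 35 were listed for ATF2, ATF7 or FOSL2 only; KLF5 was listed at 2 and JunB at 1.

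The far end of block 1 was shared. The runs of 8 lists stopped between 66.6 and 87.0 kb before the chosen end, and that of RXR, which had 1 further site at chr10:107882857-107883256, stopped 16.9 kb before it. No site followed in the next 100 kb, and the nearest site outside lay 118.8 kb past the bound. On the other side 7 sites lay in the 100 kb before block 1. Among them cJun, JunB, KLF5, RXR and ATF7 were listed at 2 each, FOSL2 and VDR at 1 each, and ATF2 and KLF4 at none. The early starts of the FOSL2 and ATF7 runs rest on these few sites, which the gap rule joined to the block for those lists and not for the others. The nearest of the 7, an ATF7 site at chr10:106649769-106650168, lay 50.03 kb away.

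Block 2 began at 80.7 kb for ATF2, ATF7 and FOSL2, all with the same site. The other runs began between 110.8 kb (VDR) and 166.0 kb (KLF4). A lone KLF5 site at chr10:116221159-116221558 came before them. The nearest site outside, listed for KLF4 and KLF5, lay 79.4 kb before the bound. The chosen end cut through the run of sites. The last member, an ATF7 and FOSL2 site at chr10:116798960-116799359, lay 0.841 kb before the bound and the first site outside, a cJun and RXR site at chr10:116799885-116800284, lay 0.084 kb after it. The ATF7 and FOSL2 runs went on for 49.2 kb. The 400 kb between blocks 2 and 3 held 18 sites, or 45.0 per Mb, 4 of them hotspots, with a gap of 122.3 kb.

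In block 3 the lists parted in mid-block. The runs of ATF2, ATF7 and FOSL2 continued to 35.0, 33.8 and 33.8 kb before the chosen end. Those of cJun, JunB, KLF4, KLF5 and RXR all ended 489.9 kb before it, at position 117610322, and that of VDR ended 460.2 kb before it. These ends depend on the gap chosen: the next site followed after 108.3 kb for cJun, 169.7 kb for VDR, 197.5 kb for KLF5, 203.0 kb for JunB and 261.9 kb for KLF4 and RXR. With runs ending at gaps over 200 kb, the median span of the 9 lists at block 3 was 915.6 kb, against 451.4 kb. After the end of the JunB run, block 3 still held 159 sites, and 141 of them were listed for ATF2, ATF7 or FOSL2 only. FOSL2 was listed at 78, ATF2 at 79 and ATF7 at 59 of these sites, whereas VDR was listed at 9, RXR at 7, JunB at 6, KLF5 at 5, cJun at 4 and KLF4 at 2. The last member, an ATF7 and FOSL2 site, lay 33.8 kb before the bound, and the next site, with 7 factors, lay 318.7 kb past it. At the start, the first member lay 29.3 kb inside and the nearest ATF7 site 16.5 kb outside.

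Each block was then cut at its centre, a choice made after this had been seen. The first 450 kb of block 3 held 155 sites with 3.12 factors on average and 34 hotspots (21.9%, 15.7 to 29.3). The second 450 kb held 147 sites with 1.55 factors on average and 3 hotspots (2.04%, 0.423 to 5.85), and 88.4% of its sites were listed for ATF2, ATF7 or FOSL2 only, against 57.4% in the first 450 kb. The number of sites was thus similar on both sides of the centre while the number of factors per site was not. The first 450 kb of block 3 was near block 2, which held 3.30 factors per site and 22.9% hotspots. Hotspots made up 9.94% before and 13.8% after the centre of block 1, and 17.2% and 25.8% in block 2.

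Counts of occupied bins also set the lists apart. ATF2, ATF7 and FOSL2 each had sites in 33 of the 36 bins of 25 kb in block 3, and the 6 other lists in 16 (KLF4) to 23 (VDR). In block 1 they had sites in 44, 43 and 43 of 48 bins, and the other lists in 27 (JunB and KLF4) to 37 (VDR). In block 2 the difference was smaller, with 20 or 21 of 24 bins against 13 (cJun) to 18 (VDR).

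Dense bins elsewhere in the genome, pooled, had another make-up, but single bins came near the blocks. The 10 fullest 100 kb bins outside the blocks held 205 sites, 18 to 27 each. KLF5 was listed at 57.6% of these sites, ATF2 at 38.5% and FOSL2 at 28.3%. Sites with ATF2, ATF7 or FOSL2 and no other factor made up 20.5% (15.2 to 26.7), near the 22.4% among all sites and far from the 62.9% in the blocks. Hotspots made up 22.9%, and the mean was 2.96 factors per site. In the fullest of these bins, on chromosome 19, ATF2 was listed at 15 and FOSL2 at 14 of 27 sites. In another, chr19:44300001-44400000, 10 of 21 sites were listed for ATF2, ATF7 or FOSL2 only, a share near that of block 2.

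Many block sites stood early in the deposited lists. The order of rows in the files has no stated meaning, but intervals shared by any pair of lists appeared in the same order in 36 of 36 pairs. Among the first 100 rows of each list, 13 (ATF7) to 22 (cJun, JunB, KLF4 and RXR) were block sites, although the blocks made up 1.29% to 7.11% of whole lists. Of the first 10 rows, 6 were block sites in the cJun, KLF4, VDR and RXR lists, 4 in that of JunB and 1 in that of KLF5. The ATF2, ATF7 and FOSL2 lists had none in their first 10 rows. The earliest block site was chr10:117540490-117540889 in block 3, listed for all 9 factors, at 0.0254% of the VDR rows and 0.0248% of the RXR rows.

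The gap between blocks 2 and 3 supplied the very first rows of several lists. The site chr10:117158496-117158895, 41.3 kb before block 3, was row 1 of the ATF2, cJun, FOSL2 and KLF5 lists and row 2 of the ATF7 list. In the KLF5 list, rows 1, 2, 3, 5, 6 and 8 all came from this gap, and 3 of these 6 sites were listed for KLF5 only at rows 2, 3 and 6.

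The early rows belonged mainly to hotspots. Hotspots in the blocks had a median row between 6.38% (JunB) and 12.4% (KLF4) of the way down a list, against 26.9% to 39.8% for hotspots in the rest of chromosome 10. For block sites with 2 to 4 factors the medians ran from 32.2% to 57.0%, against 56.6% to 73.0%. For sites with a single factor they ran from 55.8% to 94.6%, against 71.3% to 93.0%, so the ranges met. Over all block sites the median row lay between 13.4% (JunB) and 42.3% (FOSL2), against 47.9% to 54.95% in the rest. By block this did not hold for every list: in block 1 the median FOSL2 row was 50.2%, against 47.9% in the rest, and the median ATF7 row was 51.4%, against 52.1%. In each of the 9 lists the median of block hotspots came before that of hotspots in the rest of the chromosome. The hotspots compared were not alike: 82 of 136 in the blocks had 7 to 9 factors, against 68 of 221 in the rest. Rows were not compared at equal numbers of factors, so a difference by block at equal numbers was not tested. Shared intervals stood in the same order in every pair of lists, and each hotspot is in several lists by definition. The 9 medians therefore largely repeat a common order of the same sites and do not count as 9 separate results.

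**Figure D5:**
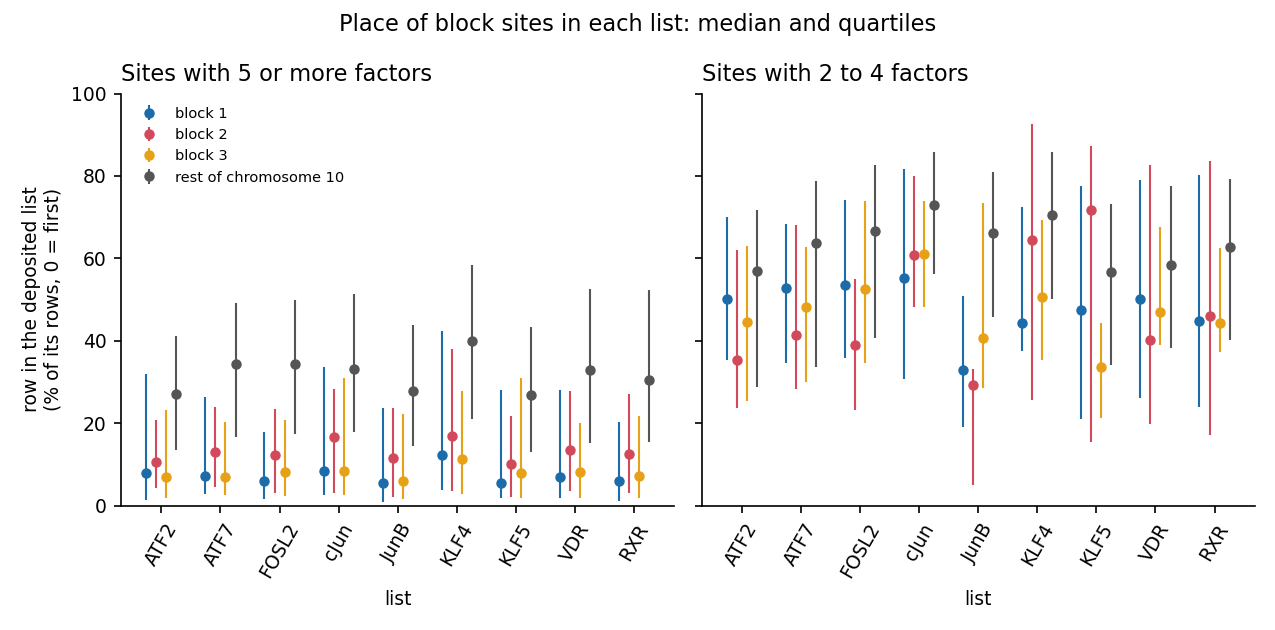
Place of sites in each deposited list, as a percentage of its rows with 0 for the first row, for hotspots (left) and sites with 2 to 4 factors (right); points are medians and bars span the quartiles. Hotspots of all 3 blocks have medians between 5.37% and 16.97%, while those of the rest of chromosome 10 lie between 26.9% and 39.8%. The number of factors is not matched within a class.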

How the data were processed

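Per the labels' protocols, ChIP-seq was done on treated 3T3-L1 cells, with 1 library per factor. Each deposited file is a list of mm9 intervals made by the authors, with 3 columns (chromosome, start, end) and no count, score or signal. FastQC, Bowtie, HOMER and mm9 are named per the submitters' processing notes; versions, roles and the peak threshold: not given in the sources used here. All intervals were 400 bp long and came from 1 common set of 34726 (midpoints at least 201 bp apart; 2 intervals on chromosome Y were left out of comparisons). A factor counts as present at a site where its list holds that exact interval, so sharing depends on how the common set was made, which is not given.

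Python 3.11.15 with pandas 2.3.3, numpy 2.4.6 and scipy 1.17.1 computed the values; the code was tested on simulated data. Differences in factors per site were tested by an exact two-sided sign-flip permutation over the 9 lists (Benjamini-Hochberg adjustment over 3 comparisons, threshold 0.05). Regions were named by rule: first and last members, nearest outside sites, longest chain, fullest 25 kb bin, up to 3 sites with most factors and up to 3 leading combinations per block; the sites named from the row order were chosen after their values were seen. Alternatives merged overlapping intervals, changed comparison sites, hotspot minimum and run gap, or left lists out. The blocks, members and lists were chosen with earlier results of these data known. Neither a genome nor gene models of mm9 were used, so no gene or sequence is given.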

Additional observations from a re-analysis of the deposited data

How the results depend on the processing

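Of 129 alternative values, 21 changed direction, crossed the threshold or moved beyond their counting interval. The others did not, among them 27 of 27 factor shares after merging of overlapping intervals (largest change 3.68 percentage points). Without the ATF2, ATF7 and FOSL2 lists, added after seeing the data, the blocks held 142, 162 and 92.2 sites per Mb. The difference in factors per site from the rest of chromosome 10 was then 0.643, 0.807 and 0.726 for blocks 1, 2 and 3 (exact permutation test over 6 lists, adjusted p = 0.125, 0.0469 and 0.0469, which support nothing because the lists left out were chosen on these values), and block 2 exceeded blocks 1 and 3 by 0.163 and 0.0807. With sites of 2 or more factors only, those excesses were 0.544 and 0.529. Merging gave -0.0187 for block 3 minus block 1 and a median distance of 1807 bp in block 1. Hotspots made up 16.5% of block 1 and 32.3% of block 2 with a minimum of 4 factors, and 9.35% of block 1 with 6. With runs ending at gaps over 200 kb, the median span of the lists was 620.9 kb at block 2 and 915.6 kb at block 3, against 483.1 and 451.4 kb. The cause of these changes was not tested beyond the change in lists or sites itself.

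With each of the 9 lists left out in turn, the difference from the rest of chromosome 10 ran from -0.205 to -0.0583 for block 1, from 0.499 to 0.884 for block 2 and from -0.272 to 0.0211 for block 3, where it turned positive without VDR (0.00838) or RXR (0.0211). Block 2 exceeded block 1 by 0.672 to 1.01 and block 3 by 0.700 to 0.926, each time past the threshold. These lists share sites and are not independent. Block 3 minus block 1 ran from -0.148 to 0.0835, turning negative without ATF2 (-0.0977) or ATF7 (-0.148). No paired analysis was possible because each factor had 1 library and all 9 belong to 1 condition. Depth, signal and a control track of these segments were not analysed here.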
